A study of Mus musculus with 8 samples.

Results

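Regions of changed hydroxymethylation inside very long genes were taken from 2 lists of differential CMS-IP regions, one for each direction of change after loss of OGT in mouse embryonic stem cells. A region belonged to this set when its midpoint lay within the span of an autosomal RefSeq protein-coding gene longer than 500 kb (mm10 coordinates). By this rule 711 of the 12594 listed regions were members, 523 from the higher list and 188 from the lower list, and they lay in 176 of the 216 such genes. Regions whose midpoint lay only in shorter protein-coding genes numbered 5990, and 5819 autosomal regions lay in no protein-coding gene.

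All 4 groups of 2 samples were Ogt fl/fl embryonic stem cells grown on mitomycin-treated fibroblast feeders. The Ogt iKO cells received 4-OHT (4-hydroxytamoxifen) for 6 days and were sorted for YFP. Control cells were cultured without 4-OHT for the same time, so the drug and the deletion cannot be told apart. Each condition gave 2 CMS-IP libraries and 2 input libraries, and feeders were removed from both by sorting. The Cre driver, and whether the replicates are separate cultures, are not given in the sources used here. The lists hold positions only, so the read depth, the size of each change, the spread between replicates and a check of Ogt itself or of stem cell markers cannot be given from them. All intervals and tests below are over regions or genes of these lists, which are not biological replicates; they cover counting error only.

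5-Hydroxymethylcytosine is made from 5-methylcytosine by the TET dioxygenases, which bind OGT, the enzyme that attaches O-GlcNAc to nuclear and cytoplasmic proteins. In CMS-IP, bisulfite turns this base into cytosine 5-methylenesulphonate, which an antibody recovers. The mark is known for its presence in gene bodies and at distal regulatory elements, and for its low level at CpG-rich promoters. The longest mammalian genes consist almost entirely of intron. Many encode synaptic adhesion proteins, ion channels, guidance receptors and scaffold proteins used in neurons, and several lie in common fragile sites, which break under replication stress.

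Overlap of the regions with start sites was counted in short windows, which cover little of the gene span. RefSeq start windows, of 250 bases before to 50 bases after an annotated start, were held for 169 of the 216 long genes, and 3 of their 271 windows (1.11%) were overlapped by a listed region. Over all autosomal windows this was 164 of 31396 (0.522%). A count of 3 windows is too small to read a difference from this share in either direction. The 250 bases before each of these 3 starts are printed because, among these 271 windows, no others were overlapped by a region. Each lies at a start inside the widest annotated span of its gene. They are given 5′ to 3′ on the gene's strand from RefSeq (GRCm38.p6), in lower case with CpG dinucleotides (CG, the same on both strands) in capitals. The Lama2 bases lie at chr10:27616943-27617192 on the minus strand, those of Syt1 at chr10:109009112-109009361 on the minus strand, and those of Robo2 at chr16:75092771-75093020 on the minus strand.
Lama2: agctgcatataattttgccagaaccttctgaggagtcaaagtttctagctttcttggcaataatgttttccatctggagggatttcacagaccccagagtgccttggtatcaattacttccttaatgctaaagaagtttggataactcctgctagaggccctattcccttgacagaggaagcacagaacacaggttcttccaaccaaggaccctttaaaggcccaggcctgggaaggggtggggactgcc
Syt1: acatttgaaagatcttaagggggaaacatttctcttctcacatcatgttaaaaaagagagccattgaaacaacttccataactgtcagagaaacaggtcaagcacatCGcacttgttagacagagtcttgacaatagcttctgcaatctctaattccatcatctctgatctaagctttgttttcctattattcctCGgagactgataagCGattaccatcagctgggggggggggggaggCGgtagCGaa
Robo2: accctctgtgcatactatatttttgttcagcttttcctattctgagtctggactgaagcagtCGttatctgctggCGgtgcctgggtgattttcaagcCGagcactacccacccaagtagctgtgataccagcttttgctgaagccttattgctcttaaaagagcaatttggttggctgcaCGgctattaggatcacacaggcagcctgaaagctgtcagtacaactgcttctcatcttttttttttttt

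The Lama2 window held 0 CpG dinucleotides and was covered in full by a lower region of 870 bp (chr10:27616407-27617276). Lama2 encodes a chain of the basement membrane protein laminin. The Syt1 window held 5 CpG dinucleotides, and 113 of its 250 bases lay under a higher region of 200 bp (chr10:109009025-109009224). Syt1 encodes the calcium sensor of synaptic vesicles. The window of Robo2, a Slit receptor gene, held 4 and was covered in full by a higher region of 719 bp (chr16:75092393-75093111). These CpG counts lie below the median of 9 over the 271 windows of long genes (interquartile range 4 to 19). The median over all 32851 windows was 6, and 92.1% of all windows held at least 1 CG.

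Regions were sparser in long genes than in shorter ones. Over the 182 Mb of long-gene span there were 0.289 higher regions per 100 kb (95% exact Poisson interval 0.265 to 0.315) and 0.103 lower regions (0.0888 to 0.119). Genes of up to 500 kb had 0.521 higher (0.506 to 0.537) and 0.220 lower regions per 100 kb (0.210 to 0.231). The ratio of shorter to long genes was thus 1.80 for higher and 2.14 for lower regions. Long genes made up 18.2% of the protein-coding gene span but held 10.6% of the regions found in such genes. In the densities a region in overlapping genes counts in each, which gave 715 pairings of a region with a long gene. The 10.6% counts each region once, whereas the 18.2% is from summed spans, in which sequence shared by overlapping genes counts for each. Covered sequence gave the same order: 220 bp of higher and 46.8 bp of lower regions per 100 kb in long genes, against 450 and 117 bp in shorter genes.

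**Figure D1:**
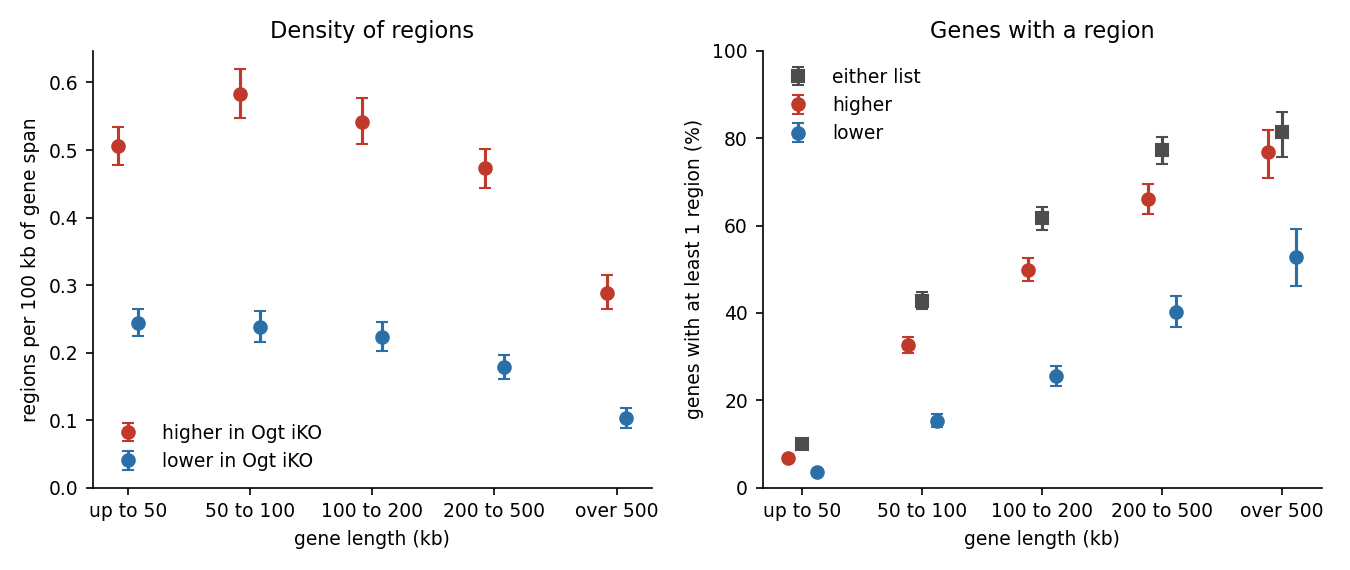
Regions by gene length for autosomal protein-coding genes. Left, regions per 100 kb of gene span, with 95% exact Poisson intervals; right, percent of genes with at least 1 region midpoint in their span, with 95% Wilson intervals. Density is lowest over 500 kb in both lists (0.289 and 0.103 per 100 kb), while the share of genes with a region is highest there (81.5% for either list).

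In the plot of density by gene length the lower list had 0.245, 0.238, 0.223 and 0.178 regions per 100 kb in the 4 classes up to 500 kb, with overlapping intervals in the first 3, while the higher list was densest at 50 to 100 kb (0.583). For both lists together, density was 0.750 per 100 kb (0.716 to 0.785) in genes of up to 50 kb, 0.821 per 100 kb (0.778 to 0.865) in genes of 50 to 100 kb, 0.765 (0.726 to 0.805) at 100 to 200 kb and 0.651 (0.618 to 0.685) at 200 to 500 kb. Within the long genes it went on, from 0.528 (0.469 to 0.591) in the 98 genes of 500 to 700 kb to 0.377 (0.326 to 0.433) in the 63 genes of 700 to 1000 kb. The 55 genes above 1000 kb had 0.298 (0.259 to 0.340). Across the 216 genes, length had a Spearman correlation of 0.0762 with the number of regions and of -0.215 with regions per 100 kb. Both are descriptions only, since neighbouring genes and overlapping spans share sequence. The median number of regions per gene was 3, 2 and 3 in these length classes.

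Most long genes nevertheless held a region. At least 1 midpoint lay in 176 of 216 long genes (81.5%, 95% Wilson interval 75.8 to 86.1%), against 20.4% of all 20665 autosomal protein-coding genes. A higher region was found in 166 of them (76.9%), against 15.5% of all genes, and a lower region in 114 (52.8%), against 8.18% of all genes. Length alone gives a longer span more room, and genes of 200 to 500 kb already reached 77.4% (74.2 to 80.3%). Both directions were found in 104 long genes (48.1%), against 28.9% of genes of 200 to 500 kb and 2.87% of all genes up to 500 kb. Higher regions alone were found in 62 long genes (28.7%), against 37.2% of genes of 200 to 500 kb. Lower regions alone were found in 10 long genes (4.63%), against 11.2% of genes of 200 to 500 kb. The other 40 long genes (18.5%) held none, against 22.6% of genes of 200 to 500 kb.

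Counts per gene were uneven. A long gene held a median of 3 regions (interquartile range 1 to 5), or 0.332 per 100 kb (0.126 to 0.665). The 62 genes with 5 or more regions held 449 of the 711 regions (63.2%), and 30 genes held a single region. Higher regions outnumbered lower ones in 134 genes, were outnumbered in 17 and tied in 25. At the length threshold, the 4 genes just above it, Edil3, Dock1, Samd12 and Stpg2, held 0, 5, 2 and 2 regions. The 4 just below it, Dnm3, Lrrc7, Cacna1e and Ank3, held 5, 2, 2 and 7.

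The balance of directions did not differ detectably from that in shorter genes. Higher regions made up 73.6% of the members (95% Wilson interval 70.2 to 76.7%) and 70.1% of the regions in shorter genes (69.0 to 71.3%). The odds ratio was 1.18 (95% Woolf interval 0.99 to 1.41; two-sided Fisher's exact test, p = 0.0614, adjusted p = 0.0921 over 3 tests). Against genes of 100 to 500 kb only, the odds ratio was 1.10 (Fisher's exact test, adjusted p = 0.457). For genes over 1 Mb it was 1.16 (Fisher's exact test, adjusted p = 0.548). The call changed with a lower length threshold: for genes over 300 kb the odds ratio was 1.17 with an adjusted p of 0.0247 (Fisher's exact test). It also changed without chromosome 9 (adjusted p = 0.0491) or chromosome 19 (adjusted p = 0.0465, both Fisher's exact tests). Outside protein-coding genes 65.9% of regions were higher (64.7 to 67.1%).

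**Figure D2:**
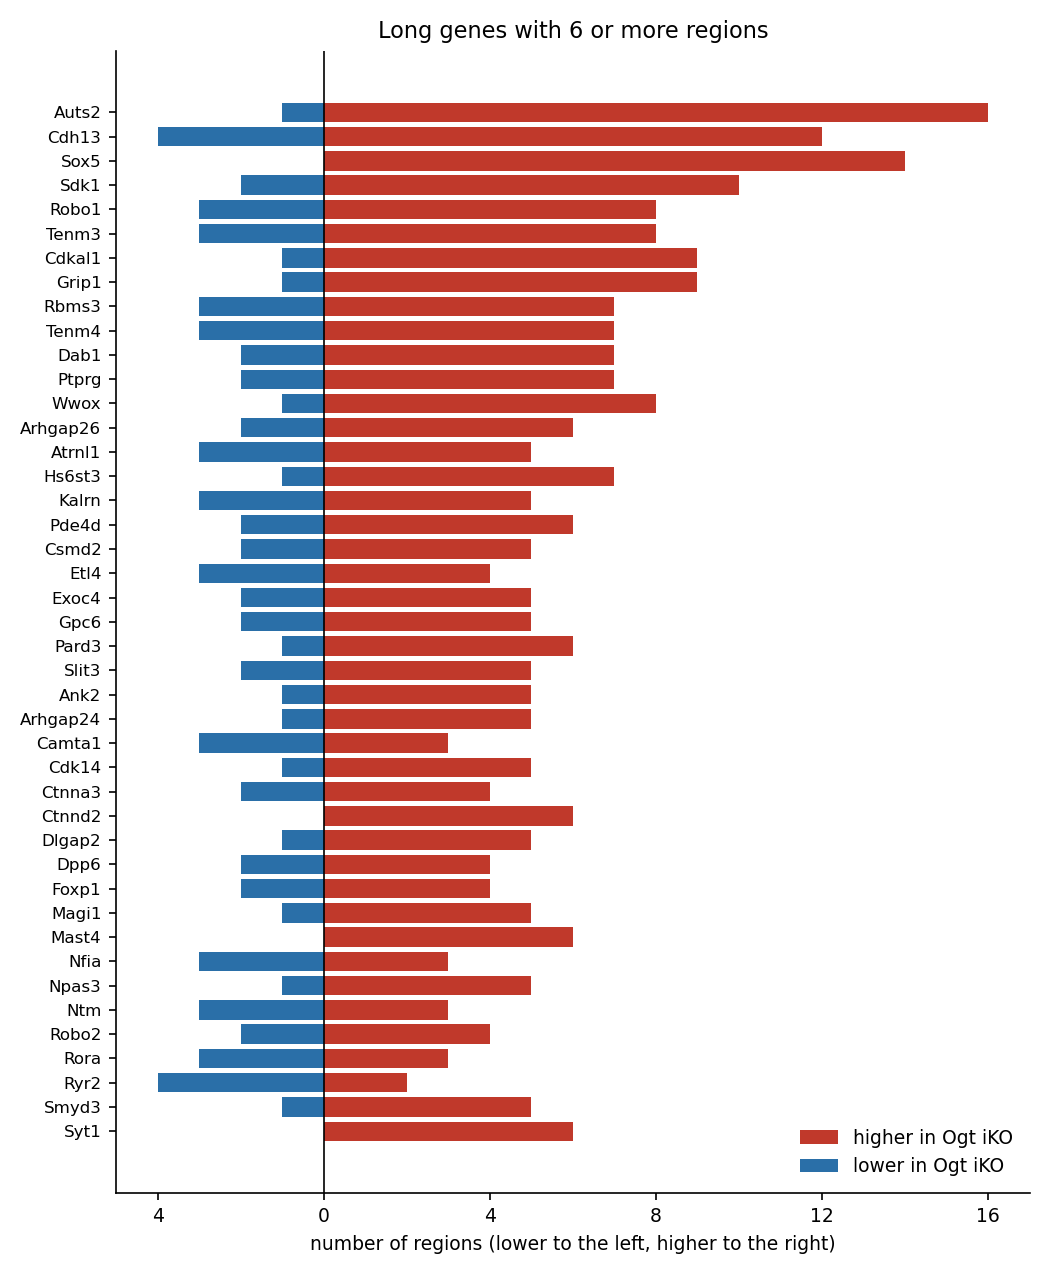
Number of regions in the span of each of 43 long genes with 6 or more regions, higher regions to the right and lower regions to the left of 0. Auts2, Sox5 and Cdh13 have the longest bars to the right (16, 14 and 12 regions), and Ryr2 has more lower (4) than higher (2) regions.

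Transcription and chromatin factors were the densest of the 7 gene groups compared. A higher region was found in 16 of the 16 long genes listed, against 76.9% of all long genes, and a lower one in 12, against 52.8%. Higher regions outnumbered lower ones in 12 and the reverse in 0, against 134 and 17 of all 216 long genes. The reverse was also found in 0 genes of the kinase, phosphatase and scaffold group and 0 of the fragile site group. They held 75 higher and 21 lower regions, 0.845 per 100 kb, with a median over genes of 0.740 against 0.332 over all 216 long genes. Auts2, whose product acts with variant Polycomb complexes, and Sox5, a SoxD factor, were known to be rich in regions when the group was listed. Without them the other 14 genes held 45 higher and 20 lower regions, 0.699 per 100 kb, with a median of 0.730. No group density was adjusted for gene length. Over all long genes density fell from 0.528 per 100 kb at 500 to 700 kb to 0.298 above 1000 kb. Membership was assigned by hand with earlier results known, so the group's values depend on which genes were listed: L3mbtl4, a chromatin reader gene with 0 regions, Zfp804b, a zinc finger gene with 0.174 per 100 kb, and the coactivator gene Ppargc1a with 0.302 were not among the 16.

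Auts2 (chr5:131437333-132543220) held 16 higher regions and 1 lower region over 92.4% of its length. Sox5 (chr6:143828425-144782287) held 14 higher regions and 0 lower ones, all between 162 and 888 kb from its 5′ end. Here and below the 5′ end is the outer end of the widest annotated span, and other starts can lie inside it. The start held for Sox5, at chr6:143947106, lay 1194 bp from its nearest higher region. Rora, a nuclear receptor, Nfia, of the NFI family, and Camta1, a calmodulin-binding factor, each held 3 higher and 3 lower regions, and the retinoic acid receptor gene Rarb held 2 and 2. In Nfia (chr4:97578066-98118876) lower regions lay at 23.8 and 31.0 kb from the 5′ end and at 259 kb, and higher regions at 206, 222 and 498 kb. In Rora the lower regions lay at 3.803, 591 and 661 kb and the higher ones at 153, 558 and 595 kb. Neither gene thus separated the directions into 2 blocks. Foxp1 held 4 higher and 2 lower regions, Npas3 and the SET-domain methyltransferase gene Smyd3 5 and 1 each, and Mecom 4 and 1.

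Kinases, phosphatases and scaffold proteins came next. A higher region was found in 23 of the 23 long genes listed, against 76.9% of all long genes, and a lower one in 14, against 52.8%. They held 91 higher and 18 lower regions, so that 83.5% were higher, against 73.6% of all members. The receptor tyrosine kinase genes Epha6 (0 higher, 2 lower) and Alk (1 and 2) were listed with axon guidance and growth factor signalling instead, so these counts depend on that placement. Their density was 0.523 per 100 kb, with a median of 0.498. Grip1 (chr10:119453238-120087267), a PDZ scaffold of glutamate receptors, held 9 higher regions from 4.46 to 466 kb from its 5′ end and 1 lower region at 611 kb. Ptprg, a receptor tyrosine phosphatase, held 7 higher and 2 lower regions, and Pde4d, a cAMP phosphodiesterase, 6 and 2. Pard3 (chr8:127063381-127612286), a cell polarity scaffold, held 6 and 1, among them the widest higher region of any long gene, 5579 bp at chr8:127073563-127079141, whose midpoint lay 13.0 kb from the 5′ end. Mast4 (6 regions) and Dlg2, Magi2, Ptprm and Ptprt (5 each) held higher regions only.

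Axon guidance and growth factor genes had intermediate values. In 12 of 14 a region was found, against 81.5% of all long genes, with 42 higher and 15 lower regions in all. Of these 73.7% were higher, close to the 73.6% of all members, and the density was 0.445 per 100 kb with a median of 0.377. Robo1 (chr16:72027518-73047491), a receptor for Slit ligands, held 8 higher regions, all between 642 and 980 kb from its 5′ end. Its 3 lower regions lay at 24.6, 673 and 781 kb. The start held for Robo1 lay inside this span, at chr16:72663149, and 6366 bp from its nearest higher region. Dab1 (chr4:103619500-104744844), the adaptor of Reelin signalling, held 7 higher regions between 707 and 1113 kb and 2 lower regions at 183 and 893 kb. A start of Dab1 inside its span, at chr4:104367538, lay 39950 bp from the nearest higher region. In Robo2 the 4 higher regions lay between 355 and 1015 kb and the 2 lower ones further on, at 1231 and 1501 kb. Slit3, which encodes a ligand of these receptors, held 5 and 2. Nrg3 and Fgf14 held none. Membership of this group was also assigned by hand, so the 12 of 14 depends on which genes were listed.

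**Figure D3:**
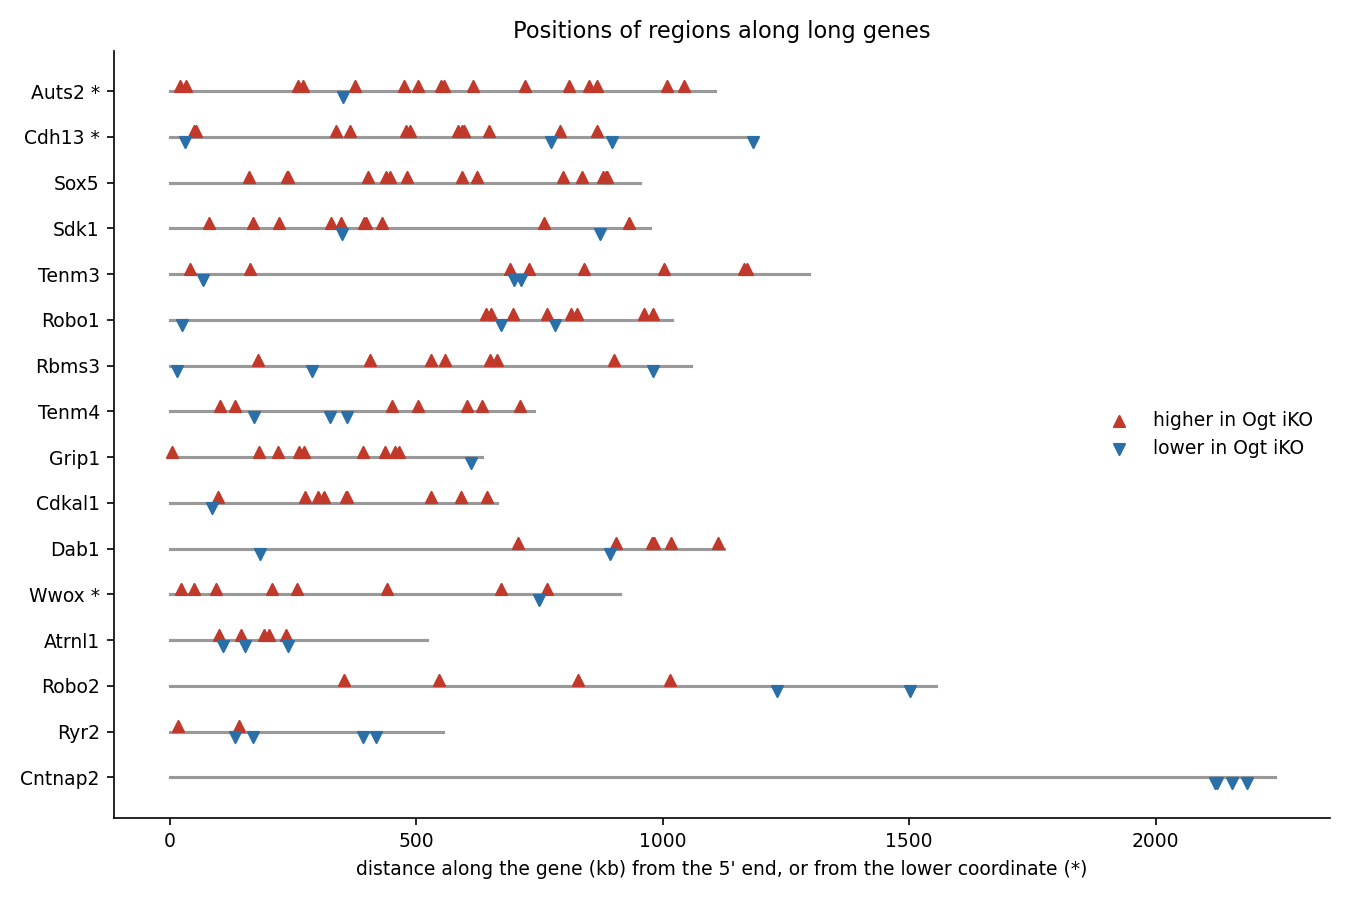
Positions of region midpoints along 16 long genes. Distances are in kb from the 5′ end of the widest annotated span, and starts inside it are not marked. Genes with a star, for which no strand was held, are measured from the lower coordinate. Grey lines are gene spans; triangles pointing up are higher and those pointing down lower regions. Higher regions of Robo1 and Dab1 start at 642 and 707 kb, and the 4 lower regions of Cntnap2 at 2121 kb.

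Cell adhesion genes were sparse, without adjustment for gene length, and divided. Of 37 long adhesion genes, 23 held a region and 14 held none, against 81.5% of all long genes with a region. The group had 74 higher and 34 lower regions, 0.268 per 100 kb with a median of 0.152. Cdh13 (chr8:118140017-119324929), which encodes a cadherin without a cytoplasmic domain, held 12 higher and 4 lower regions, and the outermost region at both ends was a lower one. The immunoglobulin-type adhesion gene Sdk1 held 10 and 2, and the teneurin genes Tenm3 and Tenm4 held 8 and 3 and 7 and 3. In Tenm4 (chr7:96171244-96911093) the 3 lower regions, at 172, 326 and 360 kb from the 5′ end, lay between 2 higher regions on one side and 5 on the other. Cntnap2 (chr6:45060061-47301393), a contactin-associated protein gene of 2241 kb, held 4 lower regions and 0 higher ones, all from 2121 to 2185 kb from its 5′ end. A start of Cntnap2 inside its span, at chr6:47244396, lay 408 bp from the nearest of these. Nrxn3, Cntn4, Cntn5 and the 3 genes Cntnap5a, Cntnap5b and Cntnap5c were among the 14 with no region.

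Ion channel and receptor genes had a summed density of 0.254 per 100 kb, the lowest of the 7 groups, with a median of 0.233. Regions were found in 14 of 19, against 81.5% of all long genes, with 29 higher and 11 lower. Ryr2 (chr13:11553099-12106945), the ryanodine receptor calcium channel of the heart, held 2 higher and 4 lower regions. Its higher regions lay at 17.2 and 140 kb from the 5′ end, and its lower regions at 133, 170, 393 and 418 kb. Cacna1c, a voltage-gated calcium channel subunit, held 5 higher and 0 lower, and Dpp6, an auxiliary subunit of potassium channels, 4 and 2. Its paralog Dpp10 held none, as did Grm5, Grm7, Kcnd2 and Kcnq5.

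Among 10 genes of large common fragile sites, 9 held a region, against 81.5% of all long genes. Together the 10 held 31 higher and 14 lower regions, with a density of 0.368 per 100 kb and a median of 0.240. Wwox (chr8:114439635-115352712), an oxidoreductase gene, held 8 higher regions and 1 lower region, and Exoc4, of the exocyst, 5 and 2. Macrod2, at 1998 kb, held 4 and 1. Fhit, the gene of another classical fragile site, held 1 and 1 over 1612 kb, and Naaladl2 held none over 1346 kb. All 5 RNA-binding protein genes held a region, against 81.5% of all long genes, with 16 higher and 5 lower regions. Rbms3 had 7 and 3, the splicing factor gene Rbfox1 5 and 0, and Adarb2 3 and 1. The density of the 5 genes was 0.463 per 100 kb, with a median of 0.327.

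**Figure D4:**
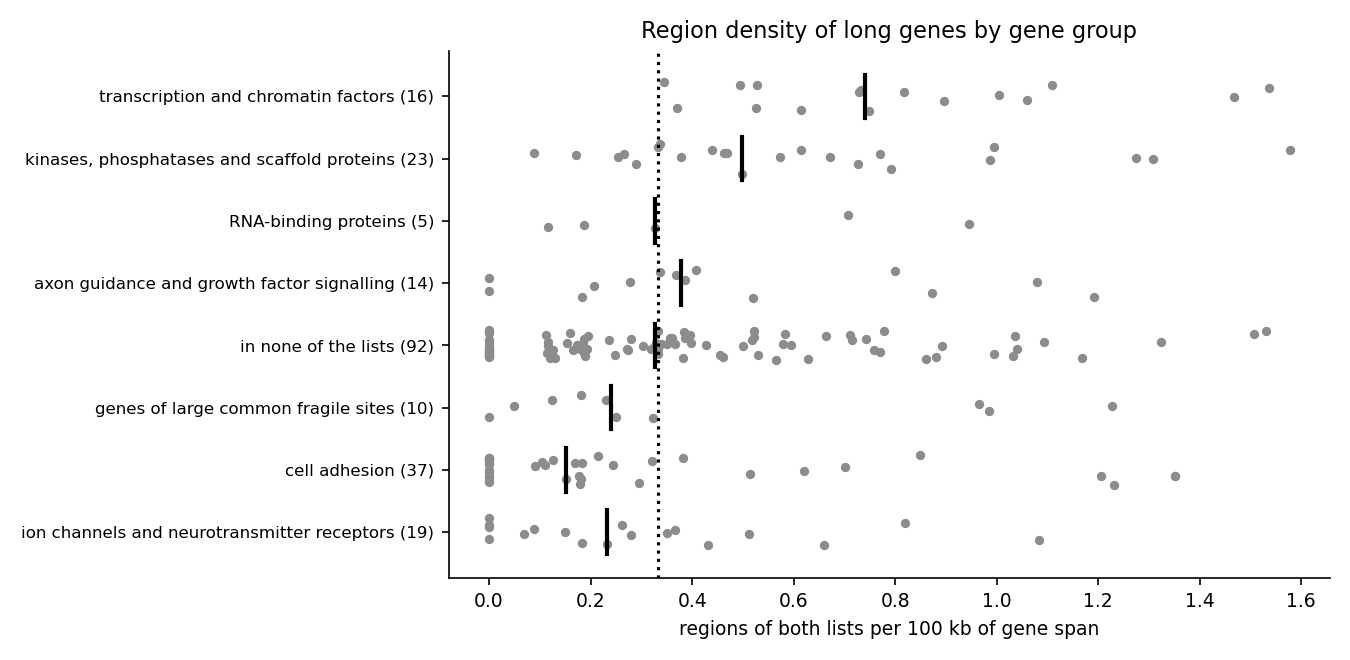
Regions of both lists per 100 kb in each long gene, by gene group, with the number of long genes of the group in brackets. Points are genes, spread vertically at random within a group; black bars are group medians and the dotted line is the median of all 216 long genes (0.332). The 16 transcription and chromatin factor genes have a median of 0.740 and the 37 cell adhesion genes one of 0.152. Densities are not adjusted for gene length.

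The 92 long genes of no group held 169 higher and 70 lower regions, 0.370 per 100 kb. Of these genes 74 held at least 1, against 81.5% of all long genes. Cdkal1, a tRNA-modifying enzyme gene, held 9 higher and 1 lower region, Hs6st3, a heparan sulfate sulfotransferase gene, 7 and 1, and Arhgap26 6 and 2. Atrnl1 (chr19:57610960-58133343) held 8 regions within 140 kb, 26.7% of its length, in the order higher, lower, higher, lower, 3 higher, lower. Kalrn, a guanine nucleotide exchange factor gene, held 5 and 3. Erc2, an active zone protein gene, held 2 and 3, with both higher regions before 154 kb and the lower ones from 163 to 661 kb from the 5′ end. Over all groups, further genes with at least 2 lower regions and more lower than higher were Ccser1 (1 higher, 3 lower), Agbl4, Alk, Nell1 and Sgcd (1 and 2 each), and Epha6, Grid1, Hpse2 and Malrd1 (0 and 2 each). Besides the transcription factors above, Ntm (3 and 3) and Lrba, Lama2, Gpc5 and Dlgap1 (2 and 2 each) held as many of each, with at least 2 of each. The other tied genes held 1 and 1.

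The longest genes had a low density but not uniformly few regions. Of the 5 longest, Cntnap2 (4 regions) and Macrod2 (5) held more than the median of 3 over all long genes, and the other 3 held fewer. Ptprd, a receptor phosphatase gene of 2271 kb, held 2 higher regions and Lsamp, an adhesion gene of 2197 kb, 1 of each direction. Lrp1b, a lipoprotein receptor family gene of 2058 kb, held 1 higher region. The longest genes with no region were Nrxn3 (1612 kb), Dpp10 (1514 kb), Naaladl2 (1346 kb), Cntn5 (1271 kb) and Csmd3 (1212 kb). Because the tested regions and the depth are unknown, a count of 0 does not mean that hydroxymethylation stayed the same in these genes.

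Sequence flanking the genes varied in the same direction as the genes. Within 500 kb on either side, the 40 genes without a region had a median of 0.15 regions per 100 kb (interquartile range 0.1 to 0.4). The 114 genes with 1 to 4 regions had 0.4 (0.3 to 0.6), and the 62 genes with 5 or more had 0.6 (0.4 to 0.9). Over all 216 genes the density inside and in the flanks had a Spearman correlation of 0.464, a description only, since flanks of neighbouring genes overlap. The flank was denser than the gene in 117 of all 216 genes (54.2%). These were 32 of the 40 genes without a region, 73 of the 114 with 1 to 4 and 12 of the 62 with 5 or more. The classes were set by the gene's own count, so this split follows largely by construction. Among flanking regions 69.2% were higher.

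Position along the gene was measured for the 550 members in genes whose strand was held. From the 5′ end, the 5 equal parts of the gene held 17.2, 16.4, 16.4, 23.4 and 26.6% of the 402 higher regions, where even spacing gives 20%. The last part's interval was 22.5 to 31.1% (Wilson). The 148 lower regions were spread as 19.6, 16.9, 20.3, 20.9 and 22.3%, and each interval included 20%. In genes of 100 to 500 kb, 20.4% of 1559 higher regions (18.5 to 22.5%) and 19.1% of 624 lower regions (16.2 to 22.3%) lay in the last part. For both lists together the last part held 25.5% in long genes and 20.02% in genes of 100 to 500 kb, an odds ratio of 1.36 (1.10 to 1.70; two-sided Fisher's exact test, adjusted p = 0.00899). This comparison was chosen after the values had been seen. It was lost when regions of a list within 100 kb in a gene were counted once (Fisher's exact test, odds ratio of 1.21 and adjusted p of 0.232). The regions of the last part lay in 85 genes, with the most, 6, in Dab1. Without Dab1, and without merging, the odds ratio was 1.32 (Fisher's exact test, adjusted p = 0.0273). Counted from the lower coordinate whatever the strand, the last part held 23.3% of the 711 members (20.4 to 26.6%) and the first 19.8%.

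**Figure D5:**
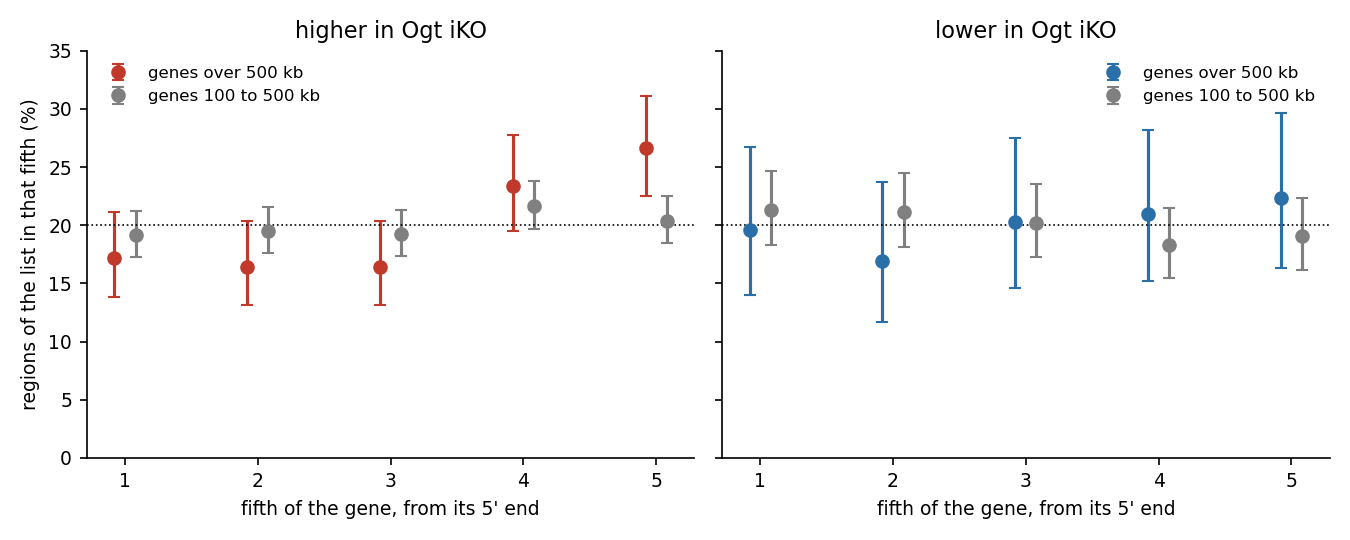
Percent of regions in each of 5 equal parts of the gene, counted from the 5′ end, for higher (left) and lower (right) regions. Coloured points are genes over 500 kb, grey points genes of 100 to 500 kb, bars are 95% Wilson intervals and the dotted line is even spacing. Higher regions of long genes are at 23.4 and 26.6% in the last 2 parts; the lower regions' intervals all include 20%.

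Nearness to a gene end did not separate the directions. The outer 10% of the gene at either end held 21.2% of the higher and 22.9% of the lower members (odds ratio 0.91, 95% Woolf interval 0.61 to 1.35; two-sided Fisher's exact test, adjusted p = 0.680). Neighbouring regions in a long gene were a median of 82.0 kb apart (interquartile range 30.2 to 171 kb, 538 pairs), and 51 pairs (9.48%) were under 10 kb apart. Of these 538 pairs 60.0% shared their direction. With 73.6% of all members higher, most pairs would share it in random order too, so no clustering by direction is read from this share.

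Higher members were wider than lower ones. The median width of the 523 higher members was 507 bp (interquartile range 276 to 877 bp), and that of the 188 lower members 302 bp (219 to 508 bp). At or above the median of all autosomal regions, 456 bp, were 55.6% of higher and 31.4% of lower members (odds ratio 2.74, 95% Woolf interval 1.93 to 3.90; two-sided Fisher's exact test, adjusted p = 3.00e-08). This direction is that of the lists as a whole and is no independent evidence. The lists start at 200 bp, and the share wider than this minimum differed less, 86.4% of higher and 82.4% of lower members, with an odds ratio of 1.36 (adjusted p = 0.281 by Fisher's exact test). The widest lower members were 2820 bp in Pde4d (chr13:109779237-109782056), 2278 bp in Magi1 (chr6:93849870-93852147) and 1853 bp in Tenm3 (chr8:48809285-48811137). After Pard3, the widest higher members were 5319 bp in the glypican gene Gpc6 (chr14:117698482-117703800) and 4436 bp in Tenm4 (chr7:96879834-96884269).

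Wide higher regions were less frequent in long genes than in shorter ones. Of the higher members 21.0% were 1000 bp or wider (110 of 523), against 27.7% in shorter genes (1163 of 4201), an odds ratio of 0.70 (0.56 to 0.87; two-sided Fisher's exact test, adjusted p = 0.00352). This comparison was also chosen after the values had been seen, and a limit of 456 bp gave 0.83 (adjusted p = 0.0707 by Fisher's exact test). For lower regions the shares were 9.04 and 11.96%, a difference that did not pass (odds ratio 0.73, 0.44 to 1.23; adjusted p = 0.282 by Fisher's exact test). Widths in shorter genes had medians of 593 bp (higher) and 324 bp (lower). In no protein-coding gene, 19.3% of higher regions were 1000 bp or wider (741 of 3835), with a median of 492 bp. The low share of wide higher regions is thus not particular to long genes.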

How the data were processed

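CMS-IP and input libraries were made with spike-ins, per the labels' protocols. The deposited files are 2 lists of region positions, named as higher and lower in the knockout; their names write the knockout as OgtiTKO, read here as the Ogt iKO of the labels, which no source used here states; the submitters' processing notes name mm10, Bismark and MACS2. Caller settings, the differential test, its threshold and the use of replicates, inputs and spike-ins are not given in the sources used here. Printed starts are 1-based. Gene spans came from the RefSeq table of GRCm38.p6 and strand from its start windows. The 95% intervals are Wilson for shares of genes and regions, exact Poisson for densities and Woolf for odds ratios. Fisher's exact tests were two-sided and adjusted by Benjamini-Hochberg, the 3 planned tests together and the 3 chosen later together. The gene lookup was checked by direct search on a sample of the listed regions, and the direction test on simulated directions. The other procedures were not simulated. Members, gene lists and tests were chosen with earlier results of these data known. Genes named in the text had 5 or more regions, or at least 2 lower and as many lower as higher; the 5 longest, the 5 longest without a region and the 3 richest of each list were added, with others as examples chosen after their values were seen. The rule also picked 1 gene not reported here. Python 3.11.15, scipy 1.17.1 and pandas 2.3.3 were used.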

Additional observations from a re-analysis of the deposited data

How the results depend on the processing

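No paired analysis was possible because the lists hold no values per sample, and leaving out a replicate was not possible for the same reason. Over 11 results, 60 values were recomputed, and in 39 neither the direction nor the call changed, or the value moved by less than its interval. The odds ratio for higher regions in long against shorter genes ranged from 1.12 to 1.22 without each chromosome in turn (Fisher's exact test), and passed the threshold without chromosome 9 (1.217, adjusted p = 0.0491) or 19 (1.220, adjusted p = 0.0465) and for genes over 300 kb (1.171, adjusted p = 0.0247). Counting each gene once by its more frequent direction gave 3.11 (Fisher's exact test, adjusted p = 1.49e-06); a gene with more regions takes the commoner direction more often by construction. The odds ratio for nearness to a gene end passed under no setting and changed side: 1.24 within 50 kb of an end, 1.04 for the outer 20% at either end, 1.13 for wider regions and 1.03 after merging within 100 kb. For regions wider than 200 bp the odds ratio was 1.36 (Fisher's exact test, adjusted p = 0.281); the cause was not tested.

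Regions per 100 kb for both lists, the higher and the lower list were 0.483, 0.353 and 0.130 for genes over 300 kb and 0.298, 0.218 and 0.0792 for genes over 1 Mb. After merging within 100 kb they were 0.281, 0.193 and 0.0888, fewer by construction. With regions at or above the median width only, 65.3% of long genes held one. Depth is unknown and limits what a gene without a region can show.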
